A study of Mus musculus with 10 samples.

Results

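The MYC, MAX, MXD and MLX network is a family of transcription factors that pair through a shared helix-loop-helix and leucine zipper and bind DNA at the E-box. The 10 genes described here are Myc, Mycn, Max, Mxd1, Mxd3, Mxd4, Mxi1, Mnt, Mlx and Mlxipl. They were chosen by name, with earlier results of these data known. All 10 were present among the 16697 genes of the table, and 9 of them passed the filter on low values, which kept 14017 genes. The gene below the filter was Mycn. RNA sequencing was performed on 4 normal livers (NL), 3 liver tumors of mice injected with c-MYC (c-MYC) and 3 liver tumors of mice injected with c-MYC and FOXO1AAA (c-MYC/FOXO1AAA). FOXO1AAA is a MYC-tagged form of the transcription factor FOXO1 that AKT can no longer inactivate, and the study asked whether it alters tumors driven by c-MYC.

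All mice were WT by label. The strain is C57BL/6 in the labels and FVB in the extraction protocol and methods, and no age or sex is given for a library. Plasmids were delivered to hepatocytes by hydrodynamic tail vein injection and integrated by Sleeping Beauty transposase, with the EF1α promoter driving the transgenes. The c-MYC mice received the empty pT3-EF1α vector in place of FOXO1AAA. A legend of the study also lists MCL1 for such control mice, while its text, methods and list of injected plasmids do not. Every tumor library therefore carries the c-MYC transgene, and whether its reads were counted at mouse Myc was not given in the sources used here. The samples are described as mice of each group, so p-values refer to the spread between these libraries.

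As background, MYC and MYCN activate genes of growth and ribosome production as dimers with MAX, the shared partner that also binds the opposing factors. MXD1, MXD3, MXD4, MXI1 and MNT pair with MAX and recruit SIN3 and histone deacetylases, which repress the same E-boxes. MLX is the corresponding partner of ChREBP, the product of Mlxipl, which in liver turns on glycolytic and lipogenic genes when glucose is high. MNT and some MXD proteins can pair with MLX as well, which links both arms of the network.

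The libraries held 13.1 M to 20.5 M reads (M, mega) in listed genes. Foxo1 lay at 6.69 to 7.87 FPKM in NL, 5.17 to 6.46 FPKM in c-MYC and 70.1 to 95.6 FPKM in c-MYC/FOXO1AAA, which matches the labels. FPKM are fragments per kilobase of gene, scaled to the size of the library. The 6 hepatocyte markers summed to 74045 to 82131 FPKM in NL, 3320 to 5200 FPKM in c-MYC and 820 to 1470 FPKM in c-MYC/FOXO1AAA. The 4 proliferation markers summed to 2.68 to 17.0, 197 to 232 and 143 to 150 FPKM in the same order, with NL 1 the highest of the normal livers. The 4 skeletal muscle markers Myod1, Myog, Chrna1 and Actc1 had no read in any c-MYC library, and 3 of them had none in NL, yet they summed to 45.4 to 82.2 FPKM in c-MYC/FOXO1AAA. Stellate cell markers summed to 73.3 to 95.0 FPKM in NL, 2.34 to 9.39 FPKM in c-MYC and 244 to 378 FPKM in c-MYC/FOXO1AAA. Macrophage markers summed to 185 to 323, 95.4 to 135 and 44.4 to 76.0 FPKM, and endothelial markers to 16.8 to 19.8, 9.64 to 16.4 and 24.9 to 40.1 FPKM. Cholangiocyte markers summed to 2.36 to 4.63, 15.4 to 30.8 and 4.72 to 11.9 FPKM, and the 4 lymphocyte markers in the table to 1.88 to 3.87, 2.31 to 2.66 and 8.90 to 13.2 FPKM. The libraries labelled as liver tumor thus held hepatocyte markers at far lower levels than NL, and the part of these markers in the results below was not tested. In bulk tissue, fewer cells of a type and less RNA per cell cannot be told apart.

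Because the network reads the E-box, the promoters of its own genes were searched for the sequence CACGTG, which reads the same on both strands. RefSeq promoters of build GRCm38.p6, from 250 bases before to 50 bases after each transcript start, were on hand for 9 of the 10 genes, all but Myc. The E-box was found in 5 of these 9 genes (Max, Mxd4, Mnt, Mlx and Mlxipl), and in 8.09% of all 27025 genes with such a promoter (7.15% of 32851 promoters). The windows of these 5 genes are shown 5′ to 3′ on the strand of the gene with the E-box in capitals. A match is a description of the letters and not of binding.
Max, chr12:76962234-76962263, minus strand: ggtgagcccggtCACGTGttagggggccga
Mxd4, chr5:34187912-34187941, minus strand: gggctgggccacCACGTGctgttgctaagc
Mnt, chr11:74830789-74830818, plus strand: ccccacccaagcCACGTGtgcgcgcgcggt
Mlx, chr11:101087238-101087267, plus strand: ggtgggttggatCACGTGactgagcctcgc
Mlxipl, chr5:135089780-135089809, plus strand: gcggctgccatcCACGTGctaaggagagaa

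The E-box of Max spanned the start itself, from position -3 to 3, and that of Mlx began 40 bases before the start, at -40. Those of Mlxipl, Mnt and Mxd4 began at -98, -123 and -219. Mlxipl has 2 promoters in the table and the E-box was in 1 of them. The FOXO motif GTAAACA was searched on both strands as well, because c-MYC/FOXO1AAA carries an active FOXO1. It was found in 4.05% of all genes and in 1 of the 9 members, at 1 of the 3 starts of Mxi1, whose gene encodes an MXD repressor.
Mxi1, chr19:53329453-53329481, plus strand, FOXO motif in capitals: cgcgcggagaaGTAAACAaaccgcgcgcg

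The promoters of Mxd4 and Mlxipl are given at greater length, because these members moved in opposite directions between the tumor groups, as described further on. Each run covers the first 240 bases, with the E-box in capitals.
Mxd4, chr5:34187721-34187960, minus strand: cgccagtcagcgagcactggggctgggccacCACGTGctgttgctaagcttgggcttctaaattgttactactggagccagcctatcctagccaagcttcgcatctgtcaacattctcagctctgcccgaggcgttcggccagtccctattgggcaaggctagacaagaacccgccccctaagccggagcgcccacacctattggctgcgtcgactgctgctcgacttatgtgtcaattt
Mlxipl, chr5:135089640-135089879, plus strand: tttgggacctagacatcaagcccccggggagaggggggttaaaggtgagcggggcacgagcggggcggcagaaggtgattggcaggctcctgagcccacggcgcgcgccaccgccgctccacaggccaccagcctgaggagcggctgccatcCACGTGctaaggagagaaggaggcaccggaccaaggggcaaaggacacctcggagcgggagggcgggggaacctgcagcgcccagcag

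Tumors of mice injected with c-MYC contained less mouse Myc RNA than NL, more Max and Mxd3 and less Mxd4. Tumors with FOXO1AAA held more Mxd4 and less Mlx and Mlxipl than c-MYC tumors. Of the 9 members tested in c-MYC versus NL, 2 rose and 2 fell, beside 24.5% and 23.6% of all genes tested. In c-MYC/FOXO1AAA versus c-MYC, 1 rose and 2 fell, beside 15.9% and 12.7%. In c-MYC/FOXO1AAA versus NL, 4 rose and 3 fell, beside 31.2% and 26.6%. The groups did not overlap for 8, 7 and 8 of the 9 members in the 3 comparisons, against 73.9%, 63.4% and 80.1% of all genes. With 9 genes and such high shares among all genes, the counts are not read as a result about the network. The comparisons share libraries, since NL serves in 2 of them and c-MYC in 2.

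Rose and fell are used for genes with an adjusted p under 0.05 in limma treat, which tests for a change beyond 1.5-fold and adjusts over all 14017 genes. A change can thus be clear of the spread and still have an adjusted p near 1. Log2 fold changes are given with the standard error (SE).

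Some members share bases with a gene on the opposite strand, and use of strand in the counting was not given in the sources used here, so reads in these stretches cannot be assigned. Mxd3 shares 105 bases with Prelid1 and Mlx shares 385 with Psmc3ip. Mxd4 shares 1001 and Mlxipl 884 bases with the antisense genes Gm42846 and Gm43500, and Mxi1 shares 5146 bases with AC133451.2 and 201 with Gm10197, introns included.

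**Figure D1:**
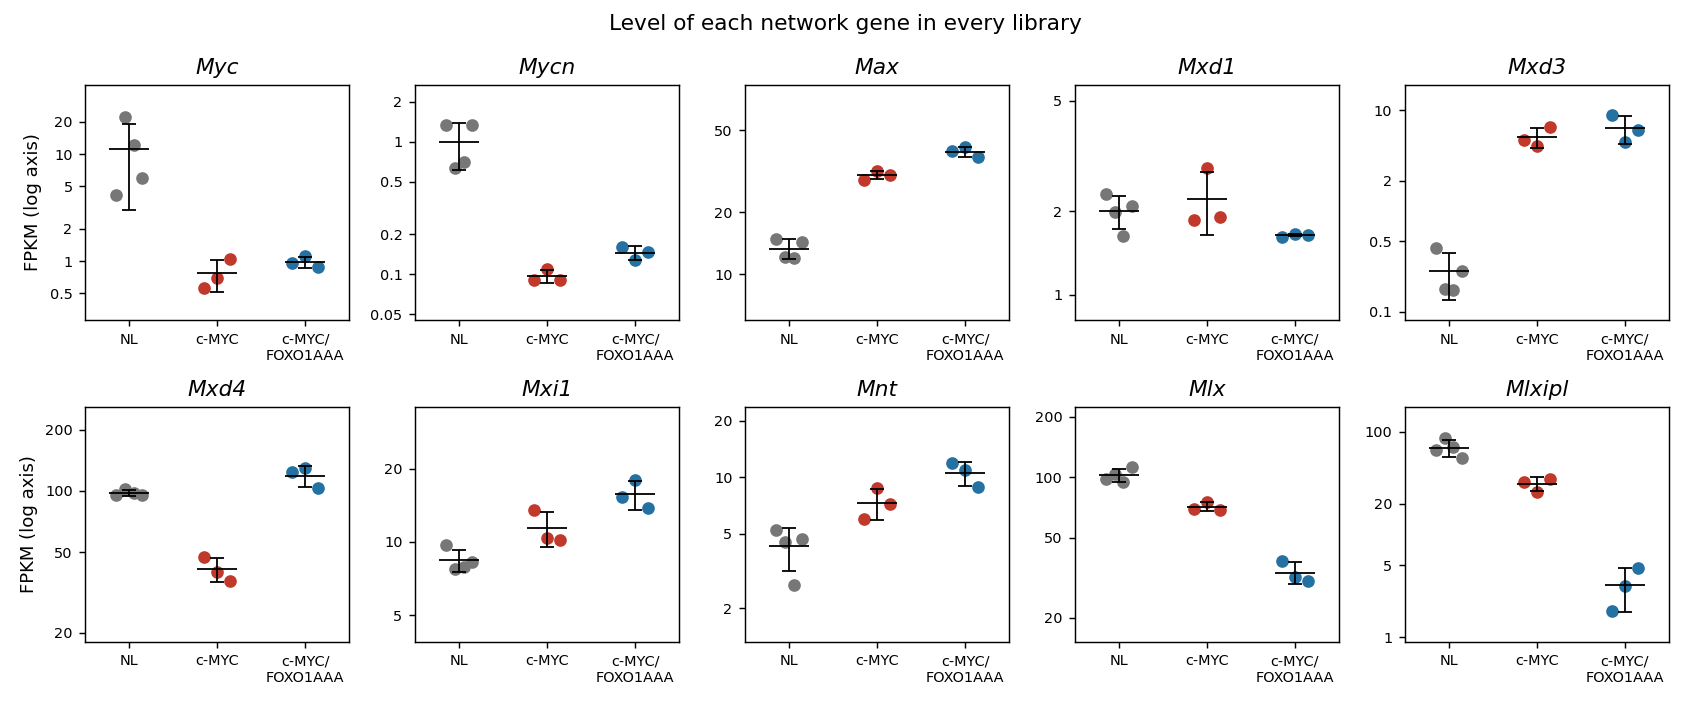
FPKM of the 10 members (log axes that differ between panels) in NL (grey, n = 4), c-MYC (red, n = 3) and c-MYC/FOXO1AAA (blue, n = 3). Points are libraries, the wide bar is the mean and the whiskers are ± SD. Mxd4 is lowest in c-MYC, Mlx and Mlxipl are lowest in c-MYC/FOXO1AAA, and Max is highest there.

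Myc encodes the oncogenic activator itself and lies at chr15:61985391-61990374 on the plus strand of GRCm38. Its level was 4.17, 22.2, 12.3 and 5.94 FPKM in NL 1 to 4, then 0.561, 0.699 and 1.05 FPKM in the c-MYC libraries and 0.964, 1.11 and 0.876 FPKM in c-MYC/FOXO1AAA. All tumor libraries lay below all normal livers, whose own values covered a wider range, as a ratio, than those of any other member within a group. Myc fell by 3.61 ± 0.50 (SE) on the log2 scale in c-MYC versus NL (limma adjusted p = 0.000219), and by 3.21 ± 0.50 in c-MYC/FOXO1AAA versus NL (adjusted p = 0.000433). Between the tumor groups the values overlapped, with a log2 fold change of 0.39 ± 0.53 and an adjusted p of 1. The fall remained past the threshold with any 1 library left out, where it lay between -3.98 without NL 1 and -3.17 without NL 2. It is a fall of reads counted at mouse Myc, and whether these include the c-MYC transgene is not known. The study reported c-MYC protein in liver tumors of c-MYC/FOXO1AAA mice by Western blot. Its legends also list c-MYC staining for the experiment with both tumor groups, and a c-MYC blot of normal livers and c-MYC tumors. The Myc values here thus do not stand for the total level of MYC.

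Mycn encodes the N-MYC paralog (chr12:12936093-12941914, minus strand) and was the rarest member in the tumors. It had 36, 14, 16 and 29 reads in NL, 2, 3 and 2 reads in c-MYC and 7, 6 and 5 reads in c-MYC/FOXO1AAA. Every tumor library held fewer reads than every normal liver. Summed over libraries and divided by their effective sizes, NL held 19.2 times the Mycn of c-MYC (95% exact interval 8.98 to 49.1) and 9.98 times that of c-MYC/FOXO1AAA (5.99 to 17.6). These intervals cover counting error only. With no filter on low values, Mycn was tested and fell by 3.29 ± 0.35 in c-MYC versus NL (limma adjusted p = 3.20e-05) and by 2.71 ± 0.35 in c-MYC/FOXO1AAA versus NL (adjusted p = 0.000141). Mycl, the third MYC paralog and not among the 10 genes, also fell in both tumor groups, from 2.87 to 3.55 FPKM in NL to 0.252 to 0.796 FPKM in c-MYC and 0.602 to 1.64 FPKM in c-MYC/FOXO1AAA. Against NL the log2 fold changes of Mycl were -2.62 ± 0.45 (adjusted p = 0.00146) and -1.89 ± 0.45 (adjusted p = 0.0145). The second of these missed the threshold without c-MYC/FOXO1AAA 1 (adjusted p = 0.0581) and without c-MYC/FOXO1AAA 3 (adjusted p = 0.0559), and at the same FPKM total it was -0.79 (adjusted p = 0.414).

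Max encodes the obligate partner of MYC and of the MXD and MNT proteins (chr12:76937269-76962201, minus strand). It was measured at 14.8, 12.1, 12.0 and 14.3 FPKM in NL, 28.8, 31.6 and 30.3 FPKM in c-MYC and 39.4, 41.4 and 36.9 FPKM in c-MYC/FOXO1AAA. The 3 groups were fully separate, with little spread inside each. Max rose by 1.19 ± 0.10 in c-MYC versus NL (adjusted p = 0.000271) and by 1.56 ± 0.10 in c-MYC/FOXO1AAA versus NL (adjusted p = 4.92e-06), which is 2.27 and 2.94 times the mean FPKM of NL. The difference between the tumor groups was 0.38 ± 0.11 and did not pass the test for a change beyond 1.5-fold (adjusted p = 1). With no fold threshold it did (adjusted p = 0.0140).

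Mxd4 encodes an MXD repressor found mainly in differentiated cells and was the member whose direction turned between the comparisons (chr5:34173883-34187720, minus strand). NL held 95.4, 102, 97.8 and 95.5 FPKM, c-MYC 47.4, 40.1 and 36.2 FPKM, and c-MYC/FOXO1AAA 124, 130 and 103 FPKM. All c-MYC libraries lay below all others, and all c-MYC/FOXO1AAA libraries lay above NL by a small margin. Mxd4 fell by 1.25 ± 0.11 in c-MYC versus NL (adjusted p = 0.000247) and rose by 1.53 ± 0.12 in c-MYC/FOXO1AAA versus c-MYC (adjusted p = 6.01e-05). The difference from NL in c-MYC/FOXO1AAA was 0.28 ± 0.11 (adjusted p = 1). When every library was set to the same FPKM total, the fall in c-MYC versus NL shrank to -0.33 (adjusted p = 1), and the median of all genes moved from 0.08 to 1.01 in that comparison. Under the same scaling Mxd4 rose by 1.38 in c-MYC/FOXO1AAA versus NL (adjusted p = 4.40e-05), where the median of all genes moved from 0.21 to 1.31. The rise in c-MYC/FOXO1AAA versus c-MYC passed the test under every alternative run.

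Mxd3 encodes the MXD member that is known from proliferating cells (chr13:55325168-55329823, minus strand). In NL it had 5, 1, 1 and 2 reads, or 0.166 to 0.430 FPKM. The c-MYC libraries held 5.06, 4.45 and 6.82 FPKM and the c-MYC/FOXO1AAA libraries 8.90, 4.83 and 6.31 FPKM. Every tumor library was above every normal liver, and the tumor groups overlapped. Mxd3 rose by 4.50 ± 0.36 in c-MYC versus NL (adjusted p = 2.77e-06) and by 4.78 ± 0.36 in c-MYC/FOXO1AAA versus NL (adjusted p = 9.82e-07). As a ratio of reads over library sizes, c-MYC held 30.9 times the Mxd3 of NL (95% exact interval 16.1 to 68.1) and c-MYC/FOXO1AAA 37.5 times (19.6 to 82.4). NL 1, which held 5 of the 9 normal reads, was also the normal liver with the highest Mki67 (1.74 FPKM, against 0.180 to 0.633 in the others). Without it the ratios were 49.9 (19.3 to 184) and 60.6 (23.6 to 223). The part of dividing cells in the Mxd3 values was not tested.

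Mxi1 and Mnt, which encode 2 further MAX partners with repressor function, were higher in each tumor group than in NL, in steps that passed the test in c-MYC/FOXO1AAA versus NL. Mxi1 (chr19:53310518-53375810, plus strand) lay at 9.67, 7.76, 7.87 and 8.24 FPKM in NL, 13.5, 10.4 and 10.2 FPKM in c-MYC and 15.3, 18.0 and 13.8 FPKM in c-MYC/FOXO1AAA. The 3 groups did not overlap. Its log2 fold change was 0.44 ± 0.14 in c-MYC versus NL (adjusted p = 1), 0.47 ± 0.15 in c-MYC/FOXO1AAA versus c-MYC (adjusted p = 1) and 0.90 ± 0.14 in c-MYC/FOXO1AAA versus NL (adjusted p = 0.0415). That last call is marginal, since it was kept in 5 of the 10 fits that left out 1 library, and without c-MYC/FOXO1AAA 2 the adjusted p was 0.160. It was also lost without NL 2 (0.0842), NL 3 (0.0827), NL 4 (0.0713) or c-MYC/FOXO1AAA 1 (0.0696).

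Mnt (chr11:74830920-74845725, plus strand) encodes the MAX partner present in most cell types. It was measured at 5.21, 4.51, 2.64 and 4.69 FPKM in NL, 5.97, 8.75 and 7.15 FPKM in c-MYC and 11.9, 10.9 and 8.82 FPKM in c-MYC/FOXO1AAA. Here too the groups were separate. Mnt rose by 1.34 ± 0.23 in c-MYC/FOXO1AAA versus NL (adjusted p = 0.00844), whereas 0.80 ± 0.23 in c-MYC versus NL (adjusted p = 0.318) and 0.54 ± 0.25 between the tumor groups (adjusted p = 1) did not pass. At the same FPKM total the difference between c-MYC and NL was 1.73 and passed (adjusted p = 0.000750), as did that of Mxi1 (1.36, adjusted p = 0.000194).

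Mxd1, the founding repressor of the family (chr6:86647042-86669161, minus strand), did not pass the test in any comparison. Its values were 2.30, 1.98, 1.63 and 2.08 FPKM in NL, 1.86, 2.85 and 1.90 FPKM in c-MYC and 1.62, 1.65 and 1.64 FPKM in c-MYC/FOXO1AAA. Both tumor groups overlapped NL. The log2 fold changes against NL were 0.12 ± 0.21 in c-MYC and -0.27 ± 0.21 with FOXO1AAA, and that between the tumor groups was -0.40 ± 0.23, each with an adjusted p of 1. Mxd1 of c-MYC/FOXO1AAA lay below c-MYC in every library. The difference between c-MYC and NL turned to -0.07 without c-MYC 2, the library with the highest Mxd1. At the same FPKM total it was 1.05 (adjusted p = 0.0469), and that of c-MYC/FOXO1AAA from NL was 0.82 (adjusted p = 0.195).

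**Figure D2:**
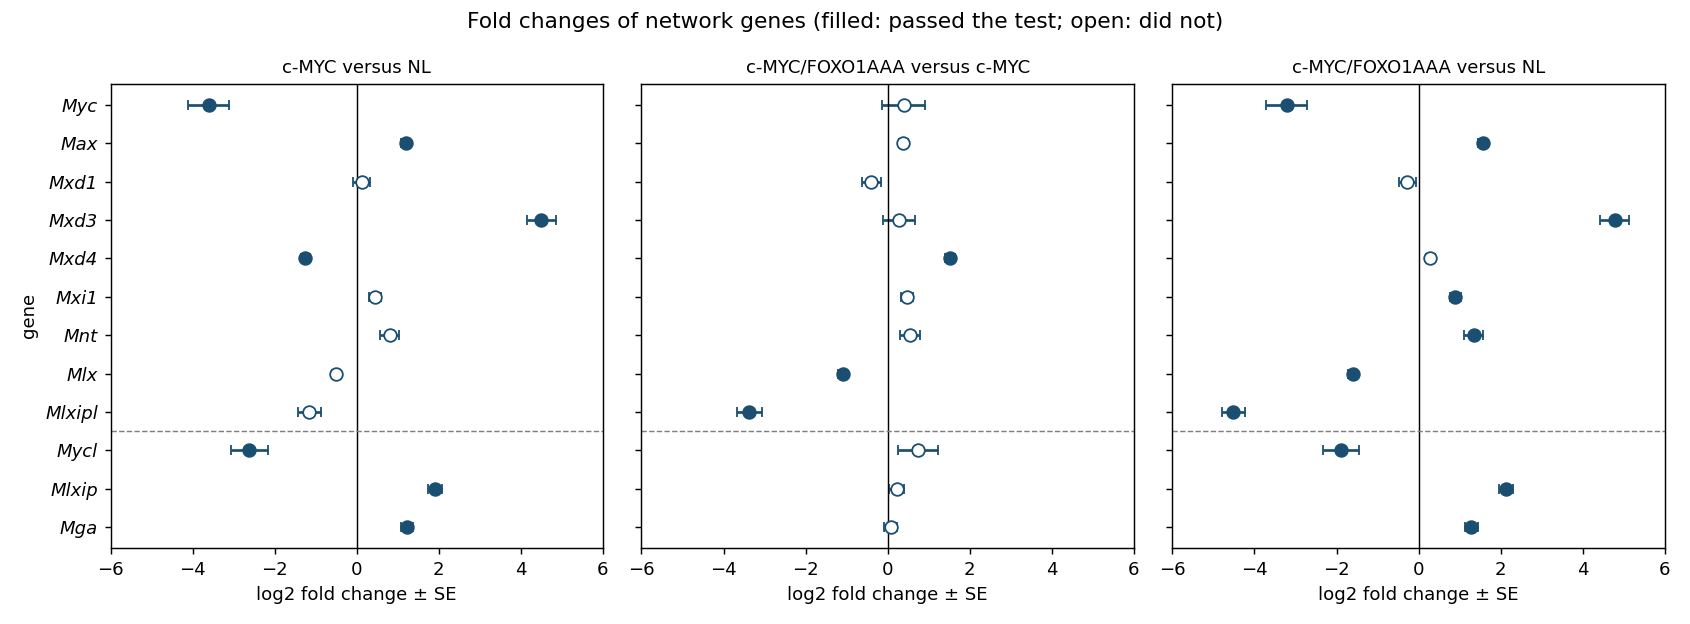
Log2 fold changes of the 9 tested members and, below the dashed line, of Mycl, Mlxip and Mga in the 3 comparisons, with bars of ± SE. Filled points passed limma treat and open points did not. Mxd4 is at -1.25 in c-MYC versus NL and at 1.53 between the tumor groups, and Mlxipl reaches -4.52 in c-MYC/FOXO1AAA versus NL.

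Levels of different genes were compared per length of the longest protein-coding transcript in GENCODE M21, because the lengths behind the deposited FPKM were not alike in kind. The length used for Mlx was 403 bases, against 1965 for its longest coding transcript, and that for Mxd4 was 1160 against 3872. On this common scale Mxd4 made up 67.1% ± 3.71 (SD, n = 4) of the summed Mxd1, Mxd3, Mxd4, Mxi1 and Mnt level in NL, 32.3% ± 2.94 (SD, n = 3) in the c-MYC libraries but 51.3% ± 1.45 (SD, n = 3) in c-MYC/FOXO1AAA. The library ranges were 62.6 to 71.2%, 29.7 to 35.5% and 50.2 to 52.9%, so no group overlapped another. Mxd3 made up 0.376% ± 0.266, 14.2% ± 3.79 and 9.52% ± 2.78 in the same order, and the tumor groups overlapped. The sum over the 5 repressor genes was 43.7 ± 1.93 FPKM in NL and 38.0 ± 1.78 FPKM in c-MYC, and 69.5 ± 7.50 FPKM in c-MYC/FOXO1AAA. On this scale the sum in each c-MYC library lay a little below NL while its makeup differed, and the sum in every c-MYC/FOXO1AAA library was above both. The sum was computed for these lengths and this scaling alone. With the lengths of the deposited FPKM, Mxd4 had means of 97.7 FPKM in NL and 41.2 FPKM in c-MYC. Means of Mxd1, Mxd3, Mxi1 and Mnt were then 0.256 to 8.38 FPKM in NL and 2.20 to 11.4 FPKM in c-MYC. A sum at those lengths would thus lie much further below NL in c-MYC. At the same FPKM total, log2 fold changes in c-MYC versus NL were -0.33 for Mxd4, 1.05 for Mxd1, 5.43 for Mxd3, 1.36 for Mxi1 and 1.73 for Mnt. A two-sided exact permutation test cannot go below 0.1 with 3 libraries against 3 or below 0.0571 with 3 against 4, so these shares are given as a description.

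**Figure D3:**
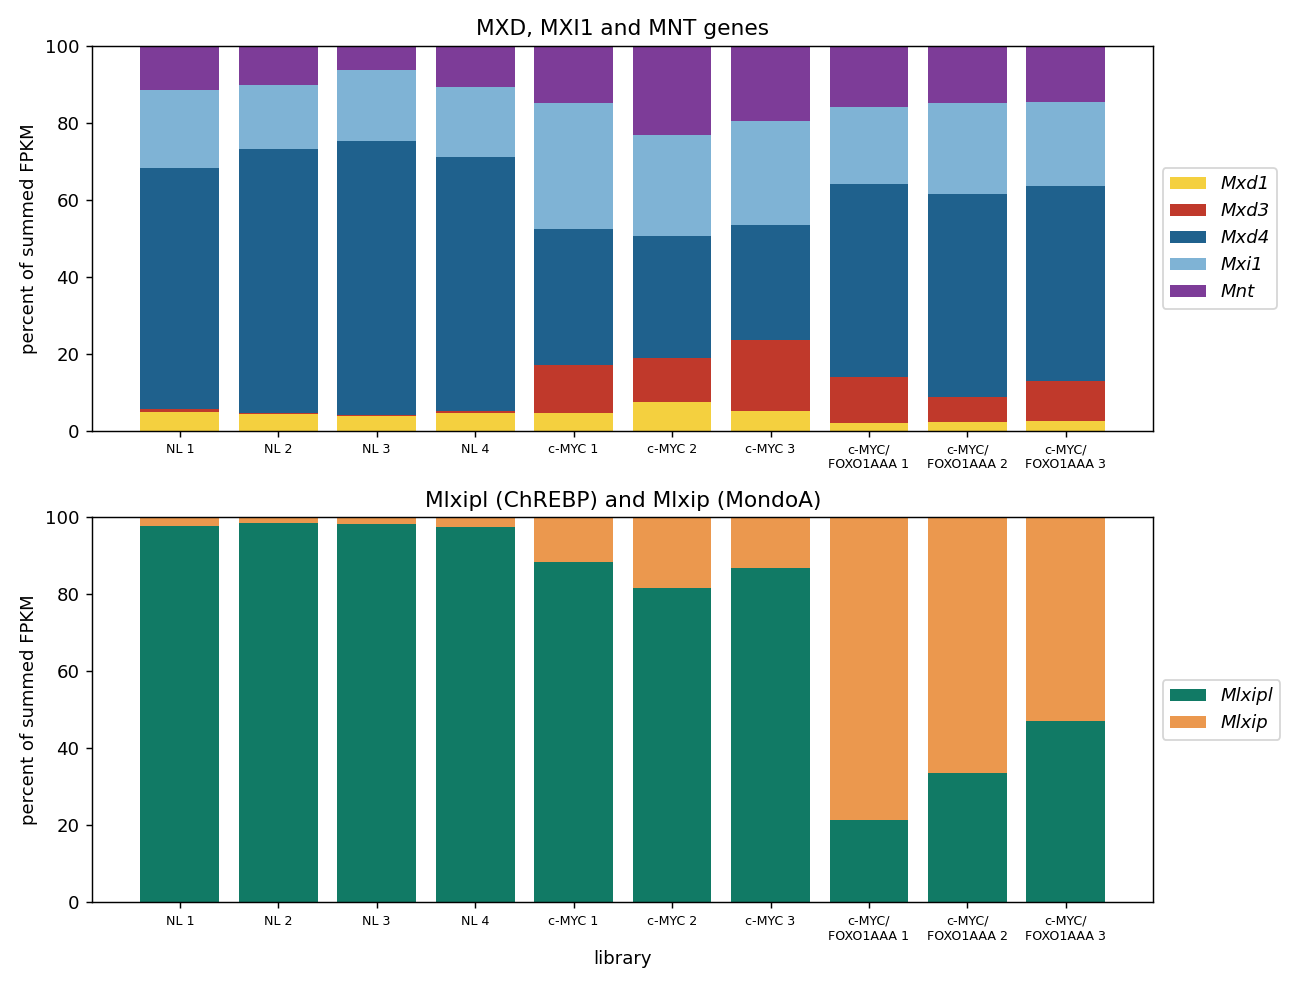
Upper panel, share of each MXD, MXI1 and MNT gene in their summed FPKM in every library, per length of the longest coding transcript. Lower panel, the same for Mlxipl and Mlxip. Mxd4 shrinks from 67.1% in NL to 32.3% in c-MYC, and Mlxip exceeds Mlxipl in all 3 c-MYC/FOXO1AAA libraries.

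In order of level per coding length, NL was led by Mlxipl (61.9 FPKM ± 11.8), Mxd4 (29.3 ± 0.961), Mlx (20.8 ± 1.58) and Max (13.3 ± 1.46). Max and Myc overlapped in that order, as did Myc and Mxi1, and the other neighbors were separate. In c-MYC the order began with Max (30.2 ± 1.38) and Mlxipl (27.6 ± 4.09), which overlapped, followed by Mlx (14.5 ± 0.761) and Mxd4 (12.3 ± 1.71), which overlapped as well. In c-MYC/FOXO1AAA it began with Max (39.1 ± 2.26) and Mxd4 (35.7 ± 4.20), which overlapped, and Mlxipl had dropped to the seventh place (2.83 ± 1.32). Mxd3 was last in NL, and Mycn was last in both tumor groups.

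Mlx encodes the partner of ChREBP and MondoA (chr11:101087277-101092207, plus strand). It was measured at 98.2, 103, 94.1 and 112 FPKM in NL, 69.2, 75.5 and 68.9 FPKM in c-MYC and 38.2, 32.0 and 30.3 FPKM in c-MYC/FOXO1AAA. The groups formed 3 separate levels. Mlx fell by 1.09 ± 0.11 in c-MYC/FOXO1AAA versus c-MYC (adjusted p = 0.00232) and by 1.61 ± 0.10 in c-MYC/FOXO1AAA versus NL (adjusted p = 3.45e-06). In c-MYC versus NL the log2 fold change was -0.51 ± 0.10 (adjusted p = 1). That value turned to 0.41 when libraries were set to the same FPKM total, and the fall against NL in c-MYC/FOXO1AAA then became -0.51 (adjusted p = 0.831).

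Mlxipl encodes ChREBP, the glucose-responsive activator of hepatocytes (chr5:135089890-135138382, plus strand), and showed the largest fall of the 9 tested members in both comparisons that involve c-MYC/FOXO1AAA. Its values were 66.3, 87.4, 71.0 and 55.2 FPKM in NL, 32.6, 26.0 and 35.0 FPKM in c-MYC and 1.81, 3.13 and 4.77 FPKM in c-MYC/FOXO1AAA. No group overlapped another. Mlxipl fell by 3.37 ± 0.30 in c-MYC/FOXO1AAA versus c-MYC (adjusted p = 2.29e-05) and by 4.52 ± 0.28 in c-MYC/FOXO1AAA versus NL (adjusted p = 3.38e-07), where NL held 21.6 times the mean. In c-MYC versus NL it was 2.24 times lower by mean FPKM, with a log2 fold change of -1.16 ± 0.28 that narrowly missed the threshold (adjusted p = 0.0707). That result passed without c-MYC/FOXO1AAA 1 (adjusted p = 0.0168) or c-MYC/FOXO1AAA 3 (0.0244), which belong to neither group and enter only the estimate of the spread. It also passed with only the 2 groups compared in the fit (0.00947). Without c-MYC 2 the adjusted p was 0.190, and at the same FPKM total the log2 fold change was -0.23 (adjusted p = 1).

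Of the 6 hepatocyte markers, some had values like those of Mlxipl and others did not, with a median of -3.39 in c-MYC versus NL and -2.85 between the tumor groups. Hnf4a, a transcription factor of hepatocyte identity named here after its values were seen, lay at 181, 164, 197 and 190 FPKM in NL, 83.7, 112 and 87.3 FPKM in c-MYC and 4.67, 5.72 and 11.1 FPKM in c-MYC/FOXO1AAA. Hnf4a had a log2 fold change of -0.97 ± 0.25 in c-MYC versus NL (adjusted p = 0.145) and -3.81 ± 0.27 between the tumor groups (adjusted p = 3.13e-06). The other 5 markers fell in c-MYC versus NL, with log2 fold changes from -5.86 for Alb to -3.01 for Ttr beside -1.16 for Mlxipl. Between the tumor groups Alb overlapped at -0.28 ± 0.36 (adjusted p = 1), and the remaining 4 fell, from -3.36 for Ttr to -2.11 for Apoa1, beside -3.37 for Mlxipl. Their part in the fall of Mlxipl was not tested.

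Mlxip, the gene of MondoA and the relative of ChREBP best known from skeletal muscle, went the other way. Mlxip rose from 1.10 to 1.34 FPKM in NL to 3.81 to 5.21 FPKM in c-MYC and 4.74 to 5.77 FPKM in c-MYC/FOXO1AAA, by 1.91 ± 0.17 (adjusted p = 3.23e-05) and 2.13 ± 0.17 (adjusted p = 6.66e-06) against NL. Between the tumor groups the Mlxip values overlapped, with a log2 fold change of 0.22 ± 0.18. The 4 skeletal muscle markers had no read in c-MYC and summed to 45.4 to 82.2 FPKM in c-MYC/FOXO1AAA, and their part in the Mlxip values was not tested. Per coding length Mlxip made up 1.97% ± 0.525 (SD, n = 4) of Mlxip plus Mlxipl in NL, 14.4% ± 3.56 (SD, n = 3) in the c-MYC libraries but 66.0% ± 12.8 (SD, n = 3) in c-MYC/FOXO1AAA. In the latter group the libraries ranged from 52.9 to 78.6%, so MondoA RNA exceeded ChREBP RNA in all 3. The summed level of both was 63.1 ± 11.8 FPKM in NL, 32.2 ± 3.72 FPKM in c-MYC and 8.14 ± 0.795 FPKM in c-MYC/FOXO1AAA. Mga, which encodes a large MAX partner of a Polycomb complex, rose from 1.77 to 1.86 FPKM in NL to 3.72 to 4.55 FPKM in c-MYC and 3.97 to 4.95 FPKM in c-MYC/FOXO1AAA (adjusted p = 0.00217 and 0.000839 against NL).

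The 22 MYC target genes, mainly of nucleolus, ribosome and nucleotide production, mostly rose in the tumors, while mouse Myc fell. In c-MYC versus NL 19 of 22 rose and 1 fell, beside 24.5% and 23.6% of all genes tested. Their median log2 fold change was 2.03 beside 0.08 over all genes. Nop56, a nucleolar protein, had means of 18.4 FPKM in NL, 143 FPKM in c-MYC and 149 FPKM in c-MYC/FOXO1AAA. Cad, the enzyme that starts pyrimidine synthesis, rose by 3.13 ± 0.22 and Nop58, a further nucleolar protein, by 3.06 ± 0.34 in c-MYC versus NL. The c-MYC/FOXO1AAA tumors had 18 rises and 1 fall against NL, beside 31.2% and 26.6% of all genes. The list median was 1.84 beside 0.21, and Npm1, which encodes nucleophosmin, rose by 2.81 ± 0.17.

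Between the tumor groups 1 of the 22 target genes rose, 1 fell and 20 did not pass. Among all genes 15.9% rose and 12.7% fell. The list median was -0.20 beside 0.03. The gene that rose was Ccnd2, a D-type cyclin, at 11.5 FPKM in NL, 3.29 FPKM in c-MYC and 26.1 FPKM in c-MYC/FOXO1AAA. It was also the gene that fell in c-MYC versus NL, by 1.84 ± 0.26 (adjusted p = 0.00105), and it rose by 3.03 ± 0.28 in c-MYC/FOXO1AAA versus c-MYC (adjusted p = 2.80e-05), the same pair of directions as Mxd4. The gene that fell was Rcl1, which acts in ribosomal RNA processing, at -0.92 ± 0.10 (adjusted p = 0.0148).

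Of 22 genes for partners and turnover of the MYC protein, 12 rose and 1 fell in c-MYC versus NL. Among all genes 24.5% rose and 23.6% fell. The list median was 1.03 beside 0.08. The largest rises were those of Cip2a, which protects MYC from dephosphorylation (4.50 ± 0.44), the mitotic kinase gene Aurka (4.20 ± 0.31) and the ubiquitin ligase gene Skp2 (3.92 ± 0.37). All 3 are also high in dividing cells, and the proliferation markers rose as well. The part of dividing cells in these rises was not tested. Pim1, a kinase gene, fell by 1.12 ± 0.17 (adjusted p = 0.0106). Between the tumor groups 3 of the 22 rose and 19 did not pass, a count near the 15.9% of all genes that rose. The 3 were Pim1 (1.72 ± 0.18, adjusted p = 0.000239), Gsk3b, whose kinase marks MYC for degradation (1.72 ± 0.22, adjusted p = 0.000980), and Zbtb17, the gene of the MYC partner MIZ1 (1.47 ± 0.16, adjusted p = 0.000554). Zbtb17 had means of 6.04 FPKM in c-MYC and 16.7 FPKM in c-MYC/FOXO1AAA. With FOXO1AAA 15 rose against NL and 7 did not pass, beside 31.2% of all genes that rose. The list median was 1.28 beside 0.21.

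Of the 9 corepressor genes of MXD and MNT in the table, 3 rose and 6 did not pass in c-MYC versus NL. Among all genes 24.5% rose, and with 9 genes the count is not read as a result about the list. The list median was 0.74 beside 0.08. The 3 were Rbbp7, a histone chaperone (2.28 ± 0.13), the histone deacetylase gene Hdac1 (1.93 ± 0.15) and Sap30, a SIN3 subunit (1.22 ± 0.18). With FOXO1AAA 4 rose against NL and 5 did not pass, beside 31.2% of all genes that rose. The list median was 0.57 beside 0.21, and Sap30 led the rises at 2.21 ± 0.18. Between the tumor groups 0 of the 9 passed limma treat, where 15.9% of all genes rose and 12.7% fell. Of the 9, 2 had an unadjusted p under 0.05, and their median was -0.33 beside 0.03. With no fold threshold 7 of the 9 passed, beside 7688 of all 14017 genes.

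Of the 18 target genes of ChREBP and MondoA, 11 fell and 1 rose in c-MYC versus NL, beside 23.6% and 24.5% of all genes. The list median was -2.65 beside 0.08. Thrsp, a lipogenic regulator, dropped from a mean of 2196 to 3.38 FPKM, and Me1, malic enzyme, from 79.7 to 0.572 FPKM, while Mlxipl was at 26.0 to 35.0 FPKM. G6pc, which releases glucose from its phosphate, fell by 4.82 ± 0.58. The gene that rose was Arrdc4, an arrestin-like regulator of glucose uptake, from 11.9 to 42.9 FPKM (1.86 ± 0.20, adjusted p = 0.000151).

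In c-MYC/FOXO1AAA versus c-MYC 10 of the 18 fell and 3 rose, beside 12.7% and 15.9% of all genes. The list median was -1.64 beside 0.03. Gpd1, of glycerol phosphate synthesis, fell from a mean of 139 to 7.70 FPKM (-4.44 ± 0.40), Mttp, of lipoprotein assembly, from 102 to 8.69 FPKM (-3.80 ± 0.40) and Pklr, liver pyruvate kinase and the classic ChREBP target, from 17.2 to 1.98 FPKM (-3.14 ± 0.20). Thrsp rose by 2.44 ± 0.22 to 18.1 FPKM, still far below NL. Txnip, a MondoA target at 19.0 to 38.2 FPKM in NL and 42.6 to 45.1 FPKM in c-MYC/FOXO1AAA, did not pass against NL (0.60 ± 0.20, adjusted p = 0.640). Arrdc4 fell between the tumor groups by 2.78 ± 0.22 (adjusted p = 9.46e-06), to 5.26 to 8.51 FPKM. That was below every normal liver (9.09 to 14.8 FPKM), though the difference from NL did not pass (-0.92 ± 0.20, adjusted p = 0.109). With FOXO1AAA 15 fell against NL and 3 did not pass, beside 26.6% of all genes that fell. The list median was -4.60 beside 0.21. The falls were led by Thrsp (-6.95 ± 0.21), G6pc (-6.52 ± 0.58) and Acacb, an acetyl-CoA carboxylase (-6.37 ± 0.33). Most of these genes are expressed mainly in hepatocytes, whose markers fell as well, and the part of that was not tested.

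**Figure D4:**
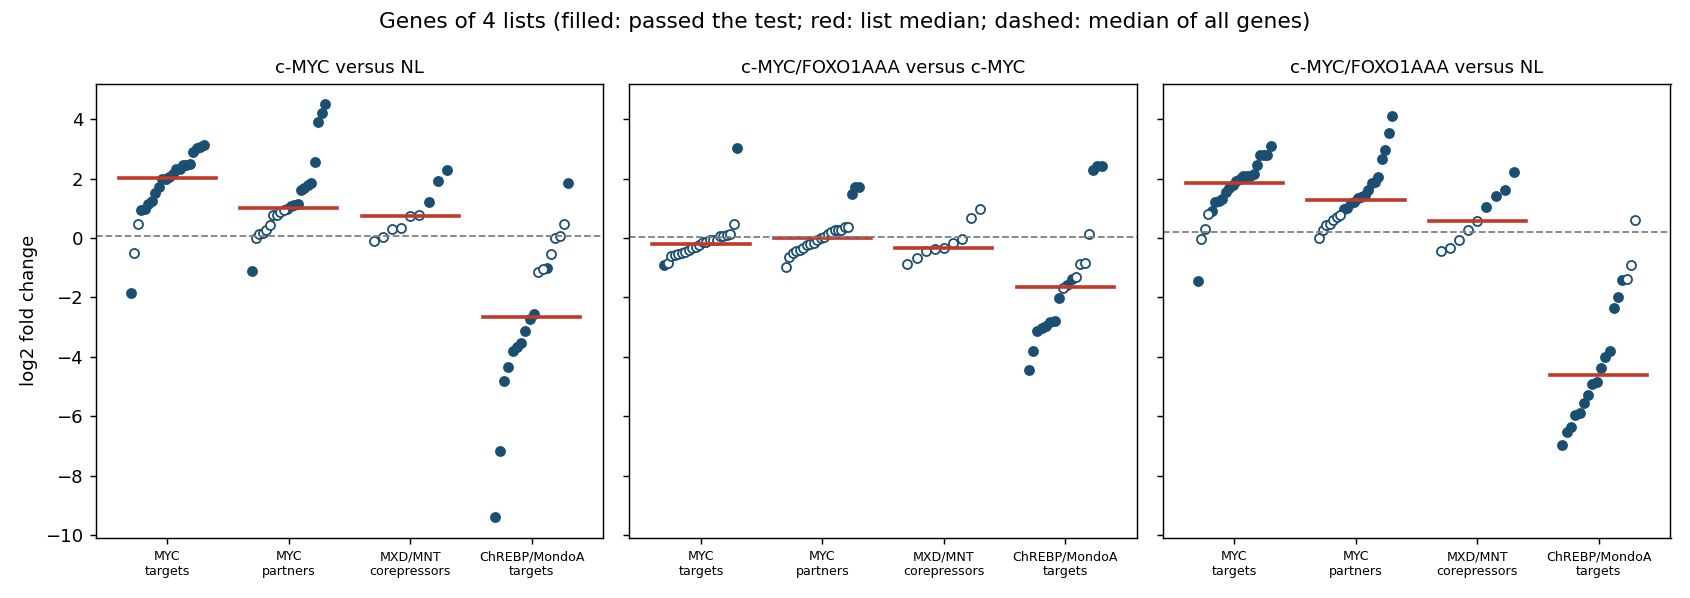
Log2 fold changes of the genes of 4 lists in the 3 comparisons, sorted within each list. Filled points passed limma treat, red bars are list medians and the dashed line is the median of all genes. The median of the 22 MYC target genes is 2.03 in c-MYC versus NL and -0.20 between the tumor groups, and that of the 18 ChREBP and MondoA targets is -2.65 and -1.64.

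Finally, genes with the most similar profile over the 10 libraries were listed, among genes past the filter. This was done for the 3 members past the filter whose group means spanned at least 2 log2 units, which leaves out Mycn. Likeness was the root mean square difference in log2 FPKM after each gene's mean was subtracted. For Mlxipl these were Sema4g (0.20), Pla2g12b (0.26) and Galm (0.28). Sema4g had means of 109, 46.6 and 4.85 FPKM in NL, c-MYC and c-MYC/FOXO1AAA, beside the 70.0, 31.2 and 3.24 FPKM of Mlxipl. For Mxd3 they were Ankle1 (0.33), Troap (0.35) and Fignl1 (0.37), and Troap, which encodes a protein of the mitotic spindle, had means of 1.16, 18.3 and 18.2 FPKM. For Myc they were Cyp4a31 (0.38), Gm11337 (0.42) and Gm45044 (0.43). Those genes are thinly covered, with 60, 51 and 54 reads over the 4 normal livers and 0, 2 and 0 reads over the c-MYC libraries.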

How the data were processed

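RNA was extracted from 4 NL, 3 c-MYC and 3 c-MYC/FOXO1AAA samples, grouped by their titles. The authors counted reads per Ensembl gene, converted identifiers to symbols and used edgeR. The submitters' processing notes name GRCm38 and FastQC 0.11.7, and the aligner and counting tool are not given in the sources used here. The deposited values are log2 FPKM. Before the logarithm 2.000 reads, in proportion to library size, had been added to each count, which understates changes of low genes. Since a gene without reads sits at a floor set by its length, whole reads were recovered within 0.0005 of a read for 99.99% of 16697 genes, with 13.1 M to 20.5 M reads (M, mega) per library. A further 372 entries had no symbol or values and were left out.

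Genes with at least 1 FPKM in at least 3 libraries (14017) were fitted with limma 3.58.1 in R 4.3.3, with all 10 libraries in 1 model. Changes beyond 1.5-fold were tested 2-sided with treat, with trend and robust estimation, and Benjamini-Hochberg adjusted p under 0.05 were called. The scripts were tested on simulated data. The fits used the deposited log2 FPKM, and no count model was fitted to the recovered reads. Effective library sizes differed between the groups in their ratio to the reads, with scaling factors of 0.649 to 0.684 in NL, 1.26 to 1.29 in c-MYC and 1.45 to 1.50 in c-MYC/FOXO1AAA.

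Of the lists, up to 3 genes per direction and comparison were named, namely those called with the largest change, no overlap between the groups and a mean of at least 5 FPKM in 1 of them. All 10 members and Mycl, Mlxip and Mga were named. Hnf4a, Mki67, Foxo1 and Txnip were named after their values were seen, as was Arrdc4 outside c-MYC versus NL. The members and lists were chosen with earlier results of these data known. Alternatives were 2 other pseudocounts, no or a stricter filter, 2 other scalings, other thresholds and model settings, the replicate number as a block and each library left out. The use of the longest coding transcript as length was added after seeing the data. Ratios of reads carry 95% exact intervals.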

Additional observations from a re-analysis of the deposited data

How the results depend on the processing

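Over 36 log2 fold changes of the members and of Mycl, Mlxip and Mga, 694 of 738 values under alternatives kept their direction and side of the threshold, 22 lost the call, 16 gained one and 6 turned direction. The 6 were Mxd1 in c-MYC versus NL without c-MYC 2 (-0.07, against up to 0.23 without another library), Mxd1 in c-MYC/FOXO1AAA versus NL (0.82) and Mlx in c-MYC versus NL (0.41) at the same FPKM total, and Mga between the tumor groups at the same median (-0.01), without c-MYC 3 (-0.02) and without c-MYC/FOXO1AAA 1 (-0.01), against up to 0.15 without another library. None of these was called in the analysis as reported. Setting the libraries to the same FPKM total moved the median of all genes from 0.08 to 1.01 in c-MYC versus NL, from 0.21 to 1.31 in c-MYC/FOXO1AAA versus NL and from 0.03 to 0.20 between the tumor groups. The share of rises among all calls went from 51.0 to 78.8%, from 54.0 to 79.5% and from 55.5 to 63.6%. At that scaling 5 members rose and 1 fell in c-MYC versus NL, beside 7061 and 1895 of all 14017 genes tested.

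With no fold-change threshold 8 members passed in c-MYC versus NL in place of 4 and 5 between the tumor groups in place of 3, and the calls over all genes were 10432 in place of 6740 and 7688 in place of 4016. With a threshold of 2-fold 2 members passed in c-MYC versus NL, beside 4612 of all 14017 genes tested. With a mean of at least 5 FPKM, which tests 8919 genes and 6 members, 2 members passed in c-MYC versus NL, beside 4516 of all genes. The calls over all genes were then 2280 between the tumor groups and 5211 in place of 8099 in c-MYC/FOXO1AAA versus NL. Fewer genes were tested under that filter. Leaving out each library gave 4 to 5, 3 to 3 and 6 to 7 members in the 3 comparisons. Over all 14017 genes it gave 6385 to 6794, 3593 to 4022 and 7681 to 8161 calls.

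Same-numbered libraries of different groups did not deviate together (correlations of -0.040 to 0.027). Of the 10 libraries, 0 correlated best with one of their own number, and NL 4 had no library of its number to match. The fit with the replicate block called 5, 3 and 6 members in place of 4, 3 and 7, and 6407, 3852 and 7810 genes in place of 6740, 4016 and 8099. Using the longest coding transcript as length lowers the levels of Mlx, Mxd4, Myc, Mlxipl, Mycn, Mxi1 and Mga, by ratios of 0.205 to 0.975, and with them the shares and summed levels, which were computed on that scale alone. Mycn and Mxd3 in NL rest on few reads, which limits their precision.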
